A study of Mus musculus with 6 samples.

Results

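Chemoattractant receptors are G protein-coupled receptors that steer leukocytes along gradients of secreted ligands. Chemokine receptors such as CX3CR1, CCR2, CXCR3 and CXCR4 couple mainly to inhibitory G proteins, are switched off by receptor kinases and arrestins, and pass the signal through phosphoinositide 3-kinase gamma and Rac to the actin skeleton. In mouse natural killer (NK) cells the set of receptors is known to change as the cells mature, with CXCR3 known from the CD27-high stage and CX3CR1 from the late CD11b-positive stage.

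The receptors described here are 8 genes chosen by name: Cx3cr1, Cxcr3, Cxcr4, Cxcr6, Ccr2, Ccr7, the chemerin receptor gene Cmklr1 and the leukotriene B4 receptor gene Ltb4r1. Of these, 5 were measured among 8520 genes, and Cxcr6, Ccr7 and Ltb4r1 were not analysed here. RNA came from NK cells (CD3-negative, NK1.1-positive) sorted from spleen, for which 20 C57BL/6Ncr mice aged 6 to 8 weeks were used. Ly49G+ cells stained for Ly49G with antibody 4D11 and not for Ly49C/I, and Ly49I+ cells stained with antibody 5E6, which binds both Ly49C and Ly49I, and not for Ly49G. Each population has 3 libraries, which the labels call biological replicates without saying how many mice fed each, so a p-value here covers the variation among 3 and 3 libraries and no more.

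Library totals ran from 33599679 to 37308068 reads in Ly49G+ and from 34634383 to 40892154 in Ly49I+ cells, and the smallest count of any of the 5 receptors was 1612 reads. The sorted genes went with the labels, Klra7 (Ly49G) differing by 6.44 and Klra9 (Ly49I) by -3.77 on the log2 scale, Ly49G+ minus Ly49I+. Of 17 listed NK cell marker names 16 were measured. Their summed level was 17550 to 17780 CPM (counts per 1000000 reads) in Ly49G+ and 18226 to 18816 CPM in Ly49I+ libraries. These are bulk samples, so fewer cells with a transcript and less of it per cell cannot be told apart.

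Each of the 5 measured receptors reached 10 CPM, about the level that every gene of the table reaches in at least 2 libraries, in all 6 libraries. Of the 100-base windows in Ccr2 transcripts (GENCODE M21), 0.79% also occur in a transcript of another receptor gene searched, and for Cx3cr1, Cxcr3, Cxcr4 and Cmklr1 the share was 0%. Transcripts of other genes were not searched.

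Bases upstream of a start site are shown for Cmklr1 and Cxcr3, one with a lower and one with a higher mean in Ly49G+, as far as no annotated exon covers them (RefSeq, GRCm38.p6). The Cmklr1 stretch, before a start inside the annotated gene, is chr5:113643604-113643853 and the Cxcr3 stretch chrX:101734270-101734397, both on the minus strand. Capitals mark matches to 4 motifs searched on both strands: GTGTGA for T-box factors, TGTGGT for RUNX factors, CTTTGA for TCF factors and CAGGTG for ZEB repressors.
Cmklr1: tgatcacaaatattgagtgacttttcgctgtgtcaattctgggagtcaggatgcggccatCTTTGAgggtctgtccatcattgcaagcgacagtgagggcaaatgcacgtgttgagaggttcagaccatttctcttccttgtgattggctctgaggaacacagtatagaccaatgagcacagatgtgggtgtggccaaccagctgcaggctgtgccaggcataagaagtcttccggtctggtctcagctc
Cxcr3: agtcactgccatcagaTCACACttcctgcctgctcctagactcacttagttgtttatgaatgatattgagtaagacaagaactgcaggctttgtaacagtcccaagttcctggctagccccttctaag

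In the 250 bases before the RefSeq start, Cmklr1 held the TCF letters at -190 and none of the other motifs. Cxcr3 held the T-box letters at -234 and, in bases covered by an annotated exon and not printed, the ZEB letters at -116 and the RUNX letters at -110, which do not overlap. Cx3cr1 held the RUNX letters at -54, in a window with all 250 bases in annotated exons. Ccr2 and Cxcr4 held none of the 4 motifs. The Ccr2 window begins inside the annotated gene and has 233 bases in annotated exons, and the Cxcr4 window has 0. Among 32851 RefSeq promoter windows of the same length, 12.3% held the T-box, 14.05% the RUNX, 13.8% the TCF and 17.2% the ZEB letters. These matches are a description of the windows.

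The 5 measured receptors differed between the populations in both directions. Cx3cr1 and Cmklr1 were lower in the Ly49G+ population, Ccr2 was higher in Ly49G+ cells, and Cxcr3 and Cxcr4 did not pass the test. That is 3 of 5 called at an adjusted p of 0.05, against 3.59% of all genes, with 1 higher (1.82% of all genes) and 2 lower (1.77%) in Ly49G+. The groups did not overlap for 4 of the 5, against 25.8% of all genes. The receptors were named with such results in view, so their share is a description. The median difference was 0.15 on the log2 scale over the 5 receptors and -0.02 over all genes.

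Cx3cr1 encodes the receptor for fractalkine (CX3CL1), a chemokine that also exists tethered to the surface of endothelial cells (gene 13051, chromosome 9, 120048683 to 120068296). Ly49G+ replicates 1, 2 and 3 had 48.0, 52.0 and 43.5 CPM, and Ly49I+ replicates 1, 2 and 3 had 186, 208 and 204 CPM. Every Ly49G+ library lay far below every Ly49I+ library, and the libraries of each group lay close together. The log2 difference of Ly49G+ minus Ly49I+ was -2.06 ± 0.09 (SE), so Cx3cr1 was 4.17-fold lower in Ly49G+ cells (limma, Benjamini-Hochberg adjusted p = 6.82e-07). By p it ranked 3 among the 8520 genes.

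Cmklr1 encodes the receptor for chemerin, a chemoattractant released as an inactive precursor and switched on by proteases (gene 14747, chromosome 5, 113612355 to 113650475). Its level was 169, 167 and 166 CPM in Ly49G+ libraries, against 262, 253 and 330 CPM in Ly49I+ libraries. The Ly49G+ libraries were nearly level, and in Ly49I+ replicate 3 stood above the others. The log2 difference was -0.74 ± 0.10 (SE), 1.67-fold lower in Ly49G+ cells (limma adjusted p = 0.00295). Leaving out Ly49I+ replicate 3 gave -0.62 ± 0.07 (adjusted p = 0.000849).

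Ccr2 encodes the receptor for CCL2 and related chemokines, best known for calling monocytes out of bone marrow (gene 12772, chromosome 9, 124101918 to 124109140). It had the highest read count of the 5, at 1027, 1056 and 1004 CPM in Ly49G+ and 685, 718 and 625 CPM in Ly49I+ libraries. All Ly49G+ values lay above all Ly49I+ values. The log2 difference was 0.61 ± 0.08 (SE), 1.52-fold higher in Ly49G+ cells (limma adjusted p = 0.00207).

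Cxcr3 encodes the receptor for the interferon-induced chemokines CXCL9 and CXCL10 (gene 12766, chromosome X, 101731535 to 101734147). Its values were 69.0, 78.0 and 74.8 CPM in Ly49G+ libraries, against 47.1, 59.7 and 58.6 CPM in Ly49I+ libraries. The groups did not overlap, and Ly49I+ replicate 1 was the lowest library. The log2 difference was 0.43 ± 0.10 (SE), with a 95% interval of 0.20 to 0.66, and narrowly missed the threshold (limma adjusted p = 0.0519). With the replicate block, in which same-numbered libraries are treated as pairs, the difference passed (adjusted p = 0.00371), so 2 of the 5 receptors were then higher in Ly49G+ (5.69% of all genes) and 2 lower (5.96%).

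Cxcr4 encodes the receptor for CXCL12, which holds lymphocytes and their precursors in bone marrow (gene 12767, chromosome 1, 128588199 to 128592299). It stood at 76.0, 65.4 and 110.3 CPM in Ly49G+ and at 62.2, 109 and 58.8 CPM in Ly49I+ libraries. A single library of each group, Ly49G+ replicate 3 and Ly49I+ replicate 2, was higher than the rest, and the groups overlapped. The log2 difference was 0.15 ± 0.24 (SE), with a 95% interval of -0.37 to 0.67 (limma adjusted p = 0.743), and it turned to -0.064 without Ly49G+ replicate 3 and to -0.010 without Ly49I+ replicate 3. Taken one at a time, an exact two-sided permutation test of the 6 libraries gave p = 0.1 for Cx3cr1, Cmklr1, Ccr2 and Cxcr3, the smallest value that 3 against 3 libraries allow, and p = 0.5 for Cxcr4.

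**Figure D1:**
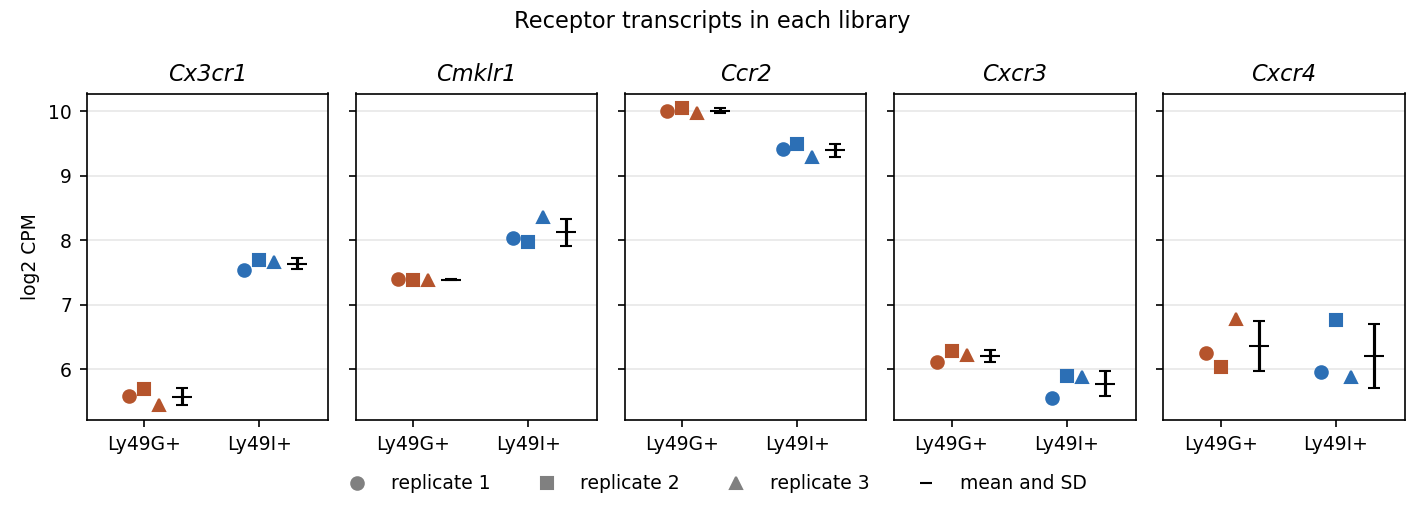
Log2 CPM (vertical axis) of the 5 measured receptors in the Ly49G+ (left, brown) and Ly49I+ (right, blue) libraries, with marker shape for the replicate number and a bar for the mean and SD of 3 libraries. Cx3cr1 and Cmklr1 lie lower and Ccr2 and Cxcr3 higher in every Ly49G+ library, and Cxcr4 overlaps.

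**Figure D2:**
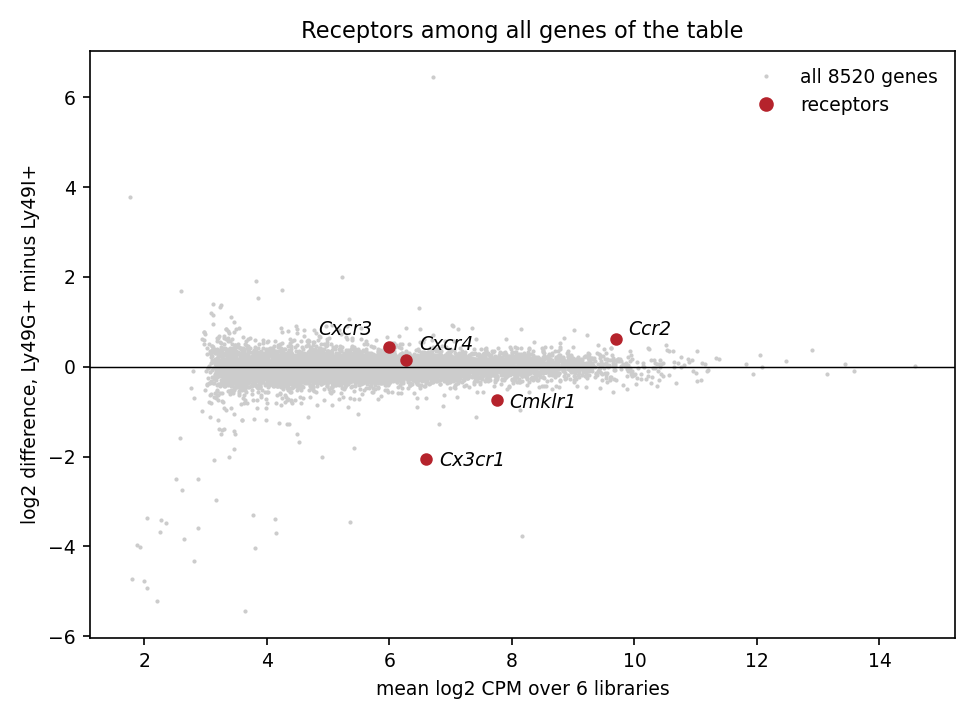
Log2 difference of Ly49G+ minus Ly49I+ (vertical axis) against mean log2 CPM over 6 libraries (horizontal axis) for 8520 genes (grey) with the 5 receptors in red. Cx3cr1 at -2.06 and Cmklr1 at -0.74 lie below the main cloud, Ccr2 at 0.61 above it, and Cxcr3 and Cxcr4 near its upper part.

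Because counts rise with transcript length, levels of different receptors were compared per kilobase, over the union of GENCODE M21 exons. In Ly49G+ cells Ccr2 was highest, at 152 ± 3.90 CPM per kilobase (SD, n = 3), followed by Cmklr1 at 49.1 ± 0.335, Cxcr4 at 46.4 ± 12.98, Cxcr3 at 42.7 ± 2.64 and Cx3cr1 at 10.6 ± 0.939. Cxcr4 overlapped both of its neighbours in that order, and Cx3cr1 lay below all others in every library. In Ly49I+ cells the order was Ccr2 at 99.99 ± 6.94 CPM per kilobase, Cmklr1 at 82.6 ± 12.4, Cx3cr1 at 44.2 ± 2.58, Cxcr4 at 42.5 ± 15.6 and Cxcr3 at 31.9 ± 4.03 (SD, n = 3). There the libraries of Ccr2 and Cmklr1 overlapped, as did those of Cxcr4 with Cx3cr1 and with Cxcr3. No source used here names the annotation behind the authors' counts, so these levels are approximate. With the longest principal transcript in place of the exon union, Ccr2 reached 179.7 ± 4.59 CPM per kilobase in Ly49G+ and 118 ± 8.19 in Ly49I+ cells. Cmklr1 reached 58.1 ± 0.396 in Ly49G+ and 97.6 ± 14.7 in Ly49I+ cells, and the order of the 5 receptors was the same in each population.

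Ratios within a library do not depend on scaling between libraries. Per kilobase, Cx3cr1 amounted to 0.0701, 0.0739 and 0.0651 of Ccr2 in Ly49G+ replicates 1, 2 and 3, against 0.407, 0.435 and 0.489 in Ly49I+ replicates 1, 2 and 3. The Cx3cr1 to Cxcr3 ratio was 0.267, 0.256 and 0.224 in Ly49G+ and 1.52, 1.34 and 1.33 in Ly49I+ libraries. So Cx3cr1 stood below Cxcr3 in each Ly49G+ library and above it in each Ly49I+ library. The Cmklr1 to Ccr2 ratio was 0.325, 0.315 and 0.329 in Ly49G+ and 0.757, 0.698 and 1.05 in Ly49I+ libraries. Between receptors that were both higher in Ly49G+ libraries, Ccr2 and Cxcr3, the ratio was close in the populations, at 3.81, 3.47 and 3.44 in Ly49G+ against 3.72, 3.08 and 2.73 in Ly49I+ libraries.

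Of 30 other chemoattractant receptor genes listed, 4 were measured and 0 passed by limma, against 3.59% of all genes. Of the 4, 1 had an unadjusted p under 0.05 and 1 passed with the replicate block (11.7% of all genes). Cysltr2, a receptor for cysteinyl leukotrienes (0.12 ± 0.11), Gpr183, an oxysterol receptor that guides B cells (0.08 ± 0.20), and Ccrl2, which binds chemerin without signalling (0.01 ± 0.17), had overlapping groups. The median over the 4 was 0.10 on the log2 scale.

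Of 41 listed genes for chemokines, chemerin and leukotriene B4 synthesis, 6 were measured, with a median difference of -0.08. In Ly49G+ 1 was higher (1.82% of all genes), 1 was lower (1.77%) and 4 did not pass. Xcl1, whose product draws XCR1-bearing dendritic cells, was higher, at 105, 117 and 132 CPM in Ly49G+ against 63.5, 86.1 and 80.9 CPM in Ly49I+ libraries (log2 difference 0.63 ± 0.12, SE, limma adjusted p = 0.0189). Its call was lost without Ly49G+ replicate 2 (adjusted p = 0.12), without Ly49G+ replicate 3 (0.0848) and without the intensity trend (0.0541). Ccl9, which encodes a mouse ligand of CCR1, reached 10 CPM in Ly49I+ libraries only and so could enter the table only as a gene that is lower in Ly49G+. It stood at 3.57, 5.48 and 3.94 CPM in Ly49G+ against 14.003, 26.0 and 15.8 CPM in Ly49I+ libraries (-2.07 ± 0.26, SE, limma adjusted p = 0.00208). The inflammatory chemokine genes Ccl3 (0.06 ± 0.12), Ccl4 (-0.24 ± 0.11) and Ccl5 (-0.22 ± 0.09) and the leukotriene A4 hydrolase gene Lta4h (0.17 ± 0.07) did not pass. With the replicate block Ccl5 passed as lower (adjusted p = 0.04), and 5.96% of all genes were lower. No ligand of CX3CR1, CCR2, CXCR3, CXCR4 or CMKLR1 was among the 6.

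**Figure D3:**
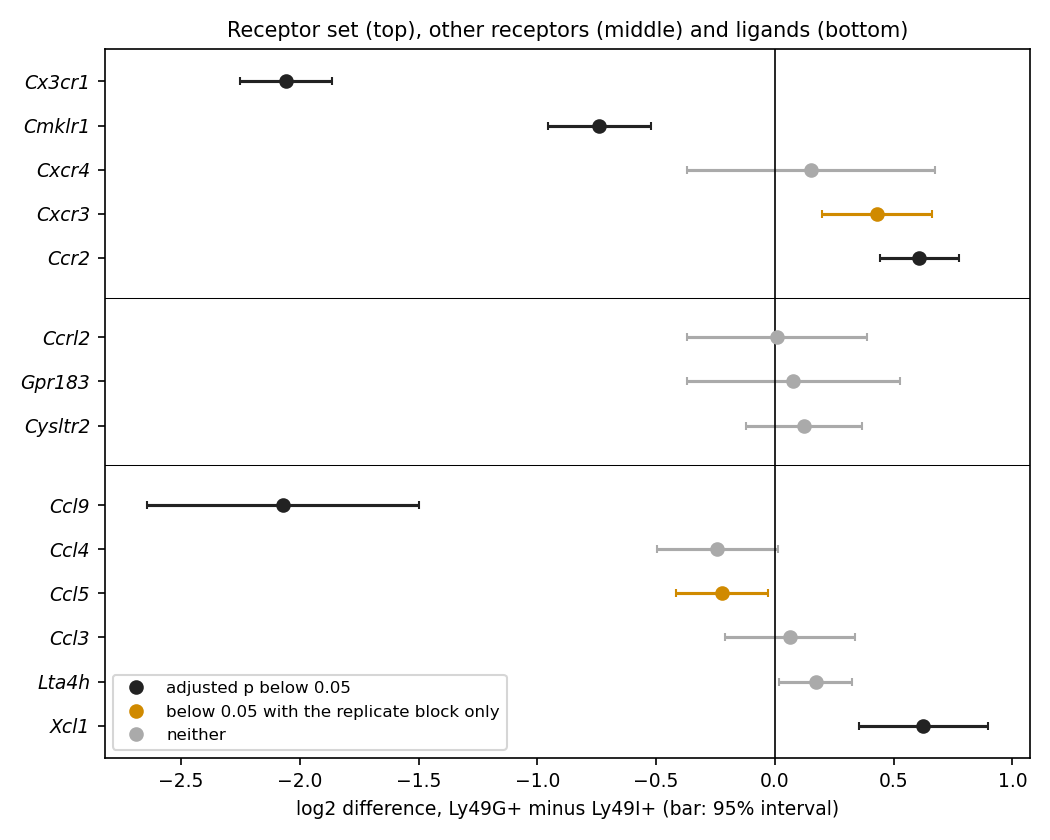
Log2 difference of Ly49G+ minus Ly49I+ with its 95% interval (horizontal axis) for the 5 receptors, 3 other receptors and 6 ligand or synthesis genes. Black points passed limma's test, orange points passed with the replicate block and not without it, and grey points passed neither.

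Downstream of the receptors, 42 of 50 listed signalling genes were measured, 0 were higher and 3 were lower in Ly49G+, and 39 did not pass, with a median difference of -0.06. Of all genes 1.82% were higher and 1.77% lower. With the replicate block 2 were higher (5.69% of all genes) and 6 lower (5.96%). Arrb1, which encodes beta-arrestin 1, a scaffold that uncouples activated receptors, was at 76.1, 73.0 and 84.8 CPM in Ly49G+ and 96.8, 112 and 100.5 CPM in Ly49I+ libraries (-0.40 ± 0.09, SE, limma adjusted p = 0.033). Rap1b, a small GTPase that activates integrins, differed by -0.42 ± 0.08 (adjusted p = 0.0161). Both had groups that did not overlap. The call of Arrb1 was lost without Ly49G+ replicate 1 (adjusted p = 0.136) or 2 (0.191), without Ly49I+ replicate 2 (0.124) and without the intensity trend (0.0726), and that of Rap1b without any single Ly49G+ library (0.0821, 0.0581 and 0.0596 without replicates 1, 2 and 3) and without Ly49I+ replicate 2 (0.0664).

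The third, the receptor kinase gene Grk3, stood at 0.357, 0.996 and 1.13 CPM in Ly49G+ against 19.4, 52.5 and 11.6 CPM in Ly49I+ libraries (-4.92 ± 0.57, SE, limma adjusted p = 0.00136). It too reached 10 CPM in Ly49I+ libraries only, which fixed its direction, so its call adds no support to the count. Prex1, a Rac exchange factor (-0.39 ± 0.10, adjusted p = 0.0745), Ric8a, a chaperone of G protein alpha subunits (-0.35 ± 0.09, adjusted p = 0.074), and Rgs19, which shortens G protein signals (0.28 ± 0.08, adjusted p = 0.0969), did not pass without the replicate block and passed with it (adjusted p = 0.00405 for Prex1, 0.00958 for Ric8a and 0.0452 for Rgs19). Gnai2, an inhibitory G protein alpha subunit (-0.02 ± 0.10), and the Rac activator gene Dock2 (-0.10 ± 0.08), named after their values were seen, did not pass.

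Transcripts known from other cells moved with the same groups. Nonclassical monocytes are a cell type in which Cx3cr1 is also known to be high. Of 22 markers of these cells 12 were measured, 11 of them lower and 0 higher in Ly49G+. Of all genes 1.77% were lower and 1.82% higher. With the replicate block Pou2f2, named outside the rule, was lower too (adjusted p = 0.0423), and 5.96% of all genes were lower. For 9 of the 12, 10 CPM was reached in Ly49I+ libraries only, so being in the table had already fixed them as lower in Ly49G+ and their count is a description. Their summed level was 80.7, 84.6 and 109 CPM in Ly49G+ replicates 1, 2 and 3, against 430, 1279 and 322 CPM in Ly49I+ replicates 1, 2 and 3. Adgre4 stood at 0.417, 0.775 and 1.26 CPM in Ly49G+ and 21.1, 68.8 and 15.6 CPM in Ly49I+ libraries. Ms4a6c, named outside the rule, stood at 42.0, 28.7 and 31.3 CPM in Ly49G+ and 63.9, 59.3 and 44.9 CPM in Ly49I+ libraries. So the markers were not all near 0 in Ly49G+. The call of Ms4a6c was lost without Ly49G+ replicate 2 (limma adjusted p = 0.201) or 3 (0.121) and without Ly49I+ replicate 2 (0.102). It was also lost with quantile normalization (0.0512) and without the intensity trend (0.0775). Of the 12, 11 were highest in Ly49I+ replicate 2, as were Grk3, Ccl9 and, by a small margin, Cx3cr1. Cx3cr1 in Ly49I+ libraries spanned 186 to 208 CPM and the monocyte sum spanned 322 to 1279 CPM. Without Ly49I+ replicate 2 the Cx3cr1 difference was -2.03 ± 0.11 (limma adjusted p = 7.07e-06). Without that library Cmklr1 differed by -0.81 ± 0.11 (adjusted p = 0.0037) and Ccr2 by 0.65 ± 0.09 (adjusted p = 0.00411). The Ly49I+ libraries kept in that fit, replicates 1 and 3, still had monocyte sums of 430 and 322 CPM. The part of monocyte RNA in the level that remains was not tested.

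Of 14 T cell markers 9 were measured, 5 higher and 0 lower in Ly49G+. With the replicate block 6 were higher, which added Trbc2 (adjusted p = 0.0234). For this and the other lists below, 1.82% of all genes were higher and 1.77% lower. With the replicate block these shares were 5.69% and 5.96%. The summed level of the 9 T cell markers was 410 to 483 CPM in Ly49G+ and 301 to 315 CPM in Ly49I+ libraries. Cd3e stood at 9.26, 18.5 and 11.5 CPM in Ly49G+ and 0.577, 1.05 and 1.20 CPM in Ly49I+ libraries. Cd3e, Cd3d and Trac reached 10 CPM in Ly49G+ libraries only, which fixed their direction. T cells are also known to express Ccr2, Cxcr3 and Cxcr4. Ccr2 spanned 1004 to 1056 CPM over the Ly49G+ libraries, in which Cd3e spanned 9.26 to 18.5 CPM, and Ccr2, Cxcr3 and Cd3e were highest in Ly49G+ replicate 2, where Cxcr4 was lowest of the Ly49G+ libraries. Of the markers of type 1 innate lymphoid cells 4 of 12 were measured, 2 higher (Il7r and Ltb) and 0 lower in Ly49G+, with sums of 136 to 178 CPM in Ly49G+ and 74.9 to 88.1 CPM in Ly49I+ libraries. The call of Ltb was lost without any single Ly49G+ library (adjusted p = 0.0503, 0.201 and 0.136 without replicates 1, 2 and 3), without Ly49I+ replicate 2 (0.0793) and without the intensity trend (0.075). Itga1, which encodes CD49a, a defining marker of these cells, went the other way, at 6.64, 11.5 and 9.27 CPM in Ly49G+ and 13.1, 13.9 and 12.9 CPM in Ly49I+ libraries (-0.57, limma adjusted p = 0.154, and 0.0459 with the replicate block). With the block Tnfsf10 was also higher (adjusted p = 0.0183), which made 3 higher and 1 lower. Of 12 B cell markers 3 were measured and 1, Cd22, was higher in Ly49G+ (sums of 307 to 402 CPM in Ly49G+ and 183 to 365 CPM in Ly49I+ libraries). The call of Cd22 was lost without Ly49G+ replicate 2 (adjusted p = 0.0761) and without Ly49G+ replicate 3 (0.0643), and with the replicate block Ighm was higher as well (0.0367). Of 13 dendritic cell markers 5 were measured and 0 passed limma's test, with 2 at an unadjusted p under 0.05. With the replicate block 2 passed, Itgax higher (adjusted p = 0.0185) and Cst3 lower (0.0477). Cst3 reached 10 CPM in Ly49I+ libraries only, which fixed its direction. The sums were 1311 to 1472 CPM in Ly49G+ and 1126 to 1370 CPM in Ly49I+ libraries. Most of each sum was Itgax, at 1037 to 1120 CPM in Ly49G+ and 827 to 945 CPM in Ly49I+ libraries. No neutrophil marker was analysed. The part of these cells in the receptor differences was not tested.

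**Figure D4:**
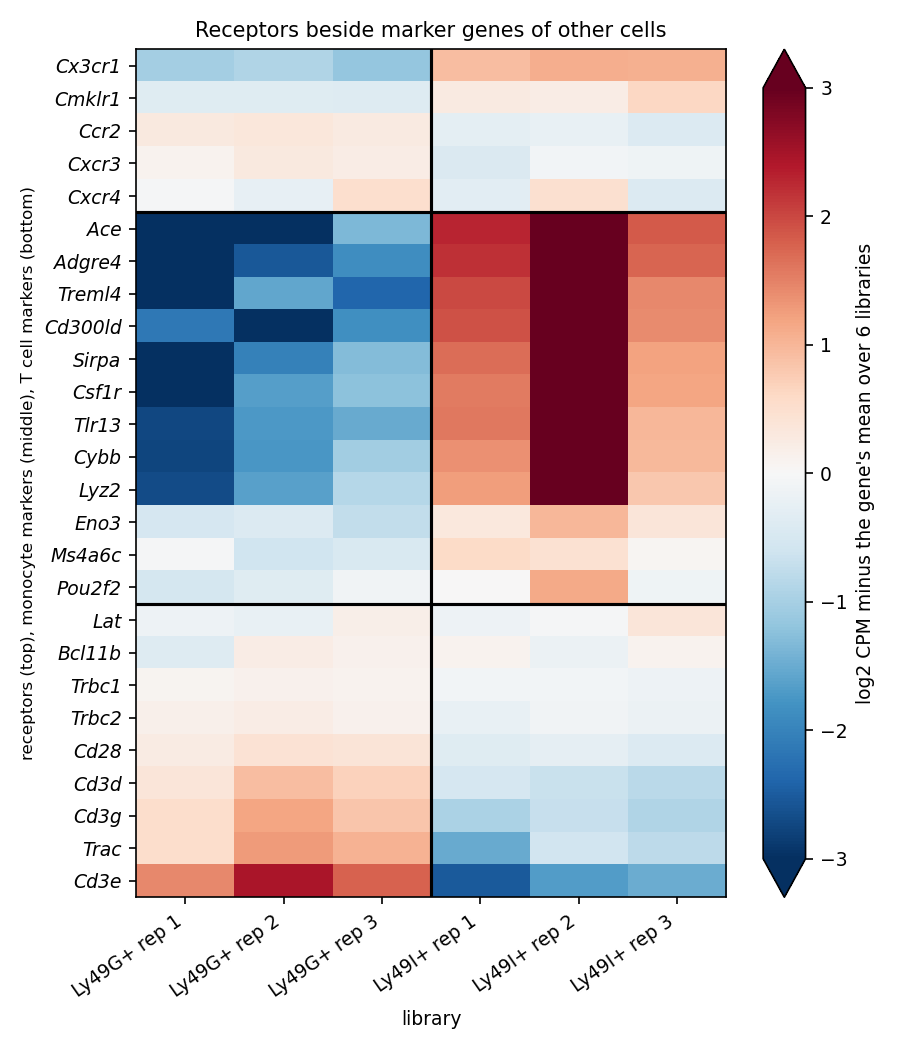
Log2 CPM minus each gene's mean over 6 libraries (colour, limited to -3 and 3) for the 5 receptors, 12 monocyte markers and 9 T cell markers, in 3 Ly49G+ (left) and 3 Ly49I+ (right) libraries. Of the 12 monocyte markers 11 peak in Ly49I+ replicate 2. Cx3cr1 is also highest there, at 208 CPM against 186 and 204 CPM in Ly49I+ replicates 1 and 3. Cmklr1 peaks in Ly49I+ replicate 3. The part of monocyte RNA in the receptor levels was not tested.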

How the data were processed

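The library kit kept the strand and read pairs were sequenced, per the labels' protocols. The submitters' processing notes name build mm10 and the tools limma, STAR (2.3.0) and CASAVA (1.8.2), and no source used here names the read counter or annotation. The authors deposited log2 CPM values for 8520 genes with NCBI gene numbers, of which 8429 were named through RefSeq GRCm38.p6. Solving the formula of limma's voom (0.5 added to each count, 1 to the total) gave whole reads for 100% of values within 0.001 read, and CPM and reads printed here come from these. The lowest second-highest CPM of any gene was 10.0.

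All genes were fitted with limma 3.58.1 in R 4.3.3 (intensity trend, two-sided, Ly49G+ minus Ly49I+, Benjamini-Hochberg over all genes, threshold 0.05). The steps were also run on simulated data, in which every gene and library had the same relative spread beyond counting noise. The real libraries need not share that spread, so the simulation does not measure how accurate the calls here are. Deviations of same-numbered libraries from their group means correlated over genes at 0.371, 0.114 and 0.155. By a preset limit a second fit treated same numbers as pairs (the replicate block), while the main fit used no block. Correlations between unlike numbers ran from -0.495 to 0.359. The highest, for Ly49G+ replicate 3 with Ly49I+ replicate 2, exceeded the same-number values 0.114 and 0.155. The labels do not say what a number marks, so the pairing is not established. The fit with the replicate block is given where it changes the call of a receptor or a count. Genes were named by a rule: every measured receptor, up to 6 genes with the smallest p in each list, and for each called receptor the 3 genes with the most similar profile. Exceptions are marked. The receptors and lists were chosen with earlier results of these data known. Python 3.11.15, pandas 2.3.3 and matplotlib 3.10.9 were used. For 1 measured gene of the other receptors, values are not reported here, though the counts and median of that list include it.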

Additional observations from a re-analysis of the deposited data

How the results depend on the processing

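Cx3cr1, Cmklr1 and Ccr2 kept direction and call under all 14 alternatives. With the replicate block, counts over all genes were 485 higher and 508 lower in Ly49G+, and Cxcr3 passed at the same difference of 0.43, making 2 receptors higher. The block called 1 other receptor, 8 signalling genes, 2 B cell, 2 dendritic cell and 4 innate lymphoid markers (3 higher and 1 lower), and it ended no receptor call. Cxcr3 also passed, again giving 2 higher receptors, with a robust prior (0.43), quantile normalization (0.44) and median centring (0.45), with adjusted p from 0.00371 to 0.242 over its 14 alternatives. Leaving out 1 library gave 0.32 to 0.49 for Cxcr3, 1 to 2 receptors higher, and 45 to 297 genes higher and 49 to 347 lower. Cxcr4 ran from -0.064 to 0.44, with -0.064 without Ly49G+ replicate 3 and -0.010 without Ly49I+ replicate 3. Gpr183 ran from -0.091 to 0.29, Ccrl2 from -0.13 to 0.13 and Ccl3 from -0.034 to 0.21. Counts of called genes then spanned 1 to 3 ligands, 1 to 6 signalling genes, and 0 to 5 NK cell, 0 to 2 B cell, 0 to 1 dendritic cell and 1 to 2 innate lymphoid markers. Without the intensity trend 1 ligand, 2 NK cell and 1 innate lymphoid marker were called. The robust prior called 7 monocyte markers and quantile normalization 1 dendritic cell marker. Testing genes with a mean log2 CPM of 4 or more left 96 lower genes, 1 ligand, 2 T cell and 3 monocyte markers, as fewer genes were tested. The cause of the other changes was not tested. Voom weights on recovered reads and 5 added reads moved no count by over 1.5 times. The smallest count of a measured receptor was 1612 reads, and the effect of depth was not tested. Having 3 libraries a group limits the precision.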

Other observations

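Genes whose profiles were most like those of the called receptors were found by the root mean square difference of mean-centred log2 profiles over the 6 libraries. For Cx3cr1 they were Nhsl2 (0.20), the potassium channel gene Kcnj8 (0.21) and Ly6a2 (0.22), which were lower in Ly49G+ by log2 differences of -1.80 ± 0.10, -2.02 ± 0.17 and -1.67 ± 0.13 (SE). For Cmklr1 they were Fbxo31 (0.06), Cpne7 (0.08) and the syndecan gene Sdc4 (0.09). For Ccr2 they were Tet1, which encodes a DNA demethylase (0.03), Ctla2b (0.04) and an unnamed gene (0.04). The measure weighs the group difference more than the spread within groups, and says nothing of shared control.

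Of the 16 NK cell marker genes measured, 3 were lower in Ly49G+ (Gzmb, Prf1 and Tbx21), against 1.77% of all genes. Only 1, Eomes, was higher, against 1.82% of all genes. With the replicate block Nkg7 was lower too (adjusted p = 0.0134), and 5.96% of all genes were lower. The count of 4 was 0 without Ly49G+ replicate 2, 1 without Ly49G+ replicate 1 or 3, 2 without Ly49I+ replicate 2 and 2 without the intensity trend. Tbx21, which encodes the transcription factor T-bet, stood at 352, 361 and 385 CPM in Ly49G+ and 452, 453 and 577 CPM in Ly49I+ libraries (log2 difference -0.42 ± 0.10, SE, limma adjusted p = 0.0441). Eomes, the related T-box factor gene, stood at 1384, 1407 and 1382 CPM in Ly49G+ and 1076, 1056 and 1044 CPM in Ly49I+ libraries (0.39 ± 0.07, SE, limma adjusted p = 0.00893). Without single Ly49G+ libraries the adjusted p ran from 0.0975 to 0.209 for Tbx21 and from 0.0516 to 0.0737 for Eomes.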
